A study of Bos taurus with 6 samples.

Results

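The EGF-like growth factors AREG, EREG, BTC, HBEGF and TGFA, their receptor EGFR and the receptor's inhibitors ERRFI1, LRIG1 and CBL were examined in bovine granulosa cells, which line the ovarian follicle and nurse the oocyte. Of these 9 genes, chosen by symbol, 8 were read by 10 probes, among 15229 genes read by the array. No probe was matched to EREG, which was not analysed here. The cells came from follicles of 2 to 6 mm of Holstein crossbred cattle and were kept in serum-free culture for 5 days, where both groups received FSH and insulin (10 ng/ml of each). One group then had 2 h of FGF18, a fibroblast growth factor, at 10 ng/ml, and the control was left untreated. Both RNAs were hybridised together on 6 two-colour arrays, taken as 3 biological replicates with 2 arrays of opposite dye orientation each. Arrays were paired by the number in their titles, and the labels do not say outright that such a pair shares RNA. The labels do not say whether control cells were taken at the start or at the end of the 2 h, or how many animals a culture held. If they were taken at the start, 2 h of culture and FGF18 cannot be told apart.

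EGF-like ligands are made as precursors in the cell membrane, from which proteases of the ADAM family release the active factor. The released factor binds EGFR, a receptor tyrosine kinase that signals through the RAS and ERK cascade, as FGF receptors do. In mice, the ovulatory surge of luteinising hormone induces Areg, Ereg and Btc in granulosa cells, and their products act on cumulus cells to drive matrix expansion and resumption of oocyte meiosis. Inhibitors then limit the receptor: ERRFI1 blocks the kinase, while LRIG1 and CBL promote its ubiquitination and degradation. In the RefSeq annotation of assembly ARS-UCD2.0, the protein-coding genes EPGN, EREG, AREG and BTC follow each other in this order, so 3 of the ligands studied lie in 1 cluster.

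For none of the 8 measured genes did the difference between FGF18-treated and untreated cells pass the test across all genes. In limma with Benjamini-Hochberg adjustment, 0 of 8 had an adjusted p under 0.05, and the background was 0% of 15229 genes (0 calls). The smallest adjusted p of the array was 0.986, which each of AREG, BTC, EGFR, ERRFI1 and LRIG1 also had. At an unadjusted p under 0.05 there was 1 of the 8, BTC, against 3.49% of all genes. A ratio is the log2 of FGF18 over control throughout, and levels are log2 intensities after normalization, averaged over both dyes of a replicate. The number of arrays limits the precision. The p-values and intervals of these ratios do not rest on a gene's own spread between 3 replicates alone. In limma, that spread is drawn toward the spread found over the whole array.

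Most of these genes lay near the background of the array. A spot counted as above background over a threshold set for each array and dye, the mean of 153 negative control spots plus 2 SD. LRIG1 was the exception, with intensities from 6.21 to 53.3 times the threshold over its 12 readings (6 arrays, 2 dyes). The brightest probes of AREG, BTC, EGFR and ERRFI1 read between 0.954 and 1.88 times the threshold. HBEGF, TGFA and CBL read between 0.779 and 1.04 times the threshold. HBEGF, a heparin-binding ligand, passed it in 0 of 6 FGF18 readings and 1 control reading. TGFA passed it in 0 readings of either condition, and CBL, a ubiquitin ligase, in 1 FGF18 reading and 0 control readings. These 3 genes were not well above background, so no ratio or fold is given for them. A decrease, or an increase that stayed below the threshold, could not be read at this signal. FGF18 readings passed the threshold in at most 1 of 6 for each of them.

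**Figure D1:**
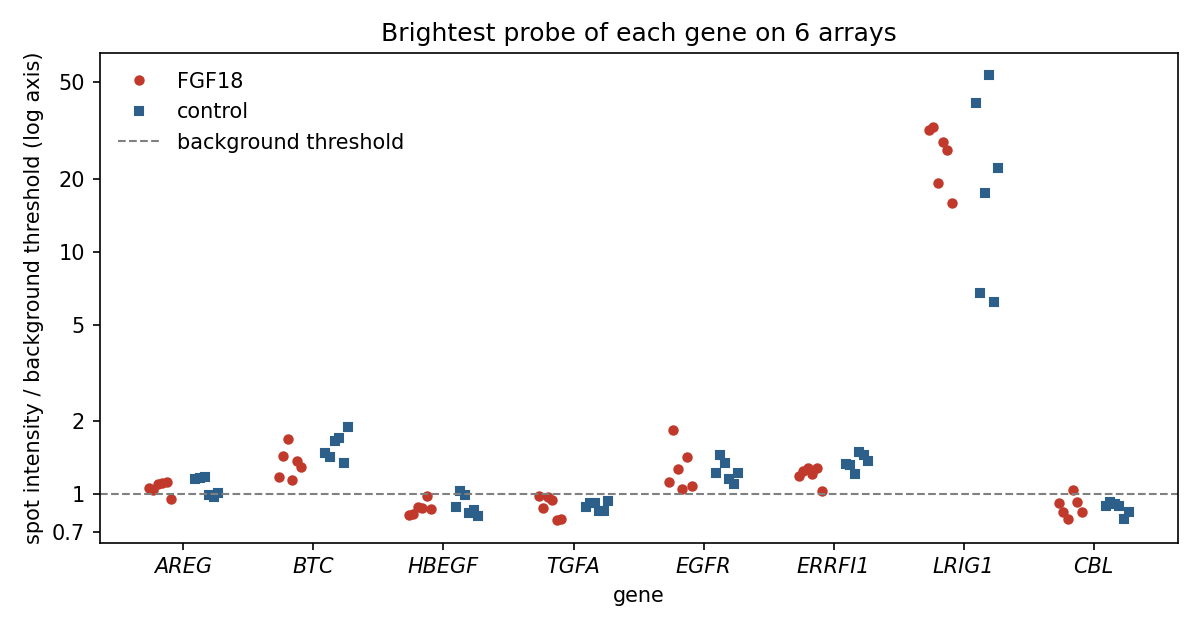
Spot intensity of the brightest probe of each measured gene, divided by the background threshold of the same array and dye (log axis), with 6 readings per condition; the dashed line is the threshold. LRIG1 lies at 6.21 or more, and the other genes lie between 0.779 and 1.88.

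Among the ligands, AREG (amphiregulin) was above background in 5 of 6 FGF18 readings and 4 of 6 control readings. Its level was 6.79, 6.78 and 6.85 in FGF18-treated cells of replicates 1, 2 and 3, and 6.74, 6.81 and 6.75 in the control. The groups overlapped, with the control of replicate 2 above FGF18-treated cells of replicates 1 and 2. The mean ratio was 0.044 ± 0.068 (SD, n = 3), with a 95% interval from -0.14 to 0.23. This mean joined arrays of opposite sign. With FGF18 in Cy5, the arrays of replicates 1, 2 and 3 gave -0.22, -0.24 and -0.11, and with the control in Cy5 they gave 0.33, 0.18 and 0.32. The dye term of AREG was -0.23 with an adjusted p of 0.084 in limma, where 0.433% of genes were called. That fit treated the 6 arrays as independent and left out their pairing within replicates. The scans of the 2 orientations are numbered as 2 slides, with 3 areas each, so dye cannot be told apart from slide.

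BTC (betacellulin), which binds EGFR and ERBB4, was the ligand with the larger difference. By its brightest probe, above background on 6 arrays in both conditions, its level was 7.05, 7.26 and 7.63 in FGF18-treated cells and 7.50, 7.63 and 7.74 in the control of replicates 1, 2 and 3. FGF18-treated cells read lower within each replicate, but the groups overlapped because replicate 3 was high in both. The ratios were -0.46, -0.37 and -0.11, with a mean of -0.31 ± 0.18 (1.24-fold lower, n = 3), a 95% interval from -0.59 to -0.029 and an unadjusted p of 0.038 in limma. This interval and this p depend on the spread drawn toward that of the whole array, not on the 3 ratios of BTC alone. On single arrays, 5 of 6 were below 0, and the array of replicate 3 with FGF18 in Cy5 gave 0.15. The mean was -0.15 over the 3 arrays with FGF18 in Cy5 and -0.47 over the 3 with the control in Cy5.

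The other probes of BTC gave smaller ratios. They were dimmer, each above background in 3 FGF18 and 4 control readings, and gave mean ratios of 0.0071 ± 0.089 and -0.031 ± 0.17 (n = 3). Their 95% intervals ran from -0.17 to 0.18 and from -0.28 to 0.22. In replicate 1 the brightest probe gave -0.46 while the dimmer ones gave -0.029 and 0.11. The dimmer probes read between 0.868 and 1.19 times the threshold, and their intervals overlap that of the brightest probe.

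EGFR, the receptor, was above background on 6 arrays in both conditions. Its level was 6.93, 7.50 and 7.20 in FGF18-treated cells and 7.09, 7.43 and 7.19 in the control of replicates 1, 2 and 3. Replicate 2 was the highest and replicate 1 the lowest in both conditions, and the groups overlapped. The spread between replicates, 1.49-fold in FGF18-treated cells and 1.27-fold in the control, exceeded the difference between conditions. The mean ratio was -0.026 ± 0.12 (n = 3). Its 95% interval from -0.25 to 0.20 corresponds to 0.842 to 1.15 times the control level, on a scale that shrinks ratios of dim probes.

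**Figure D2:**
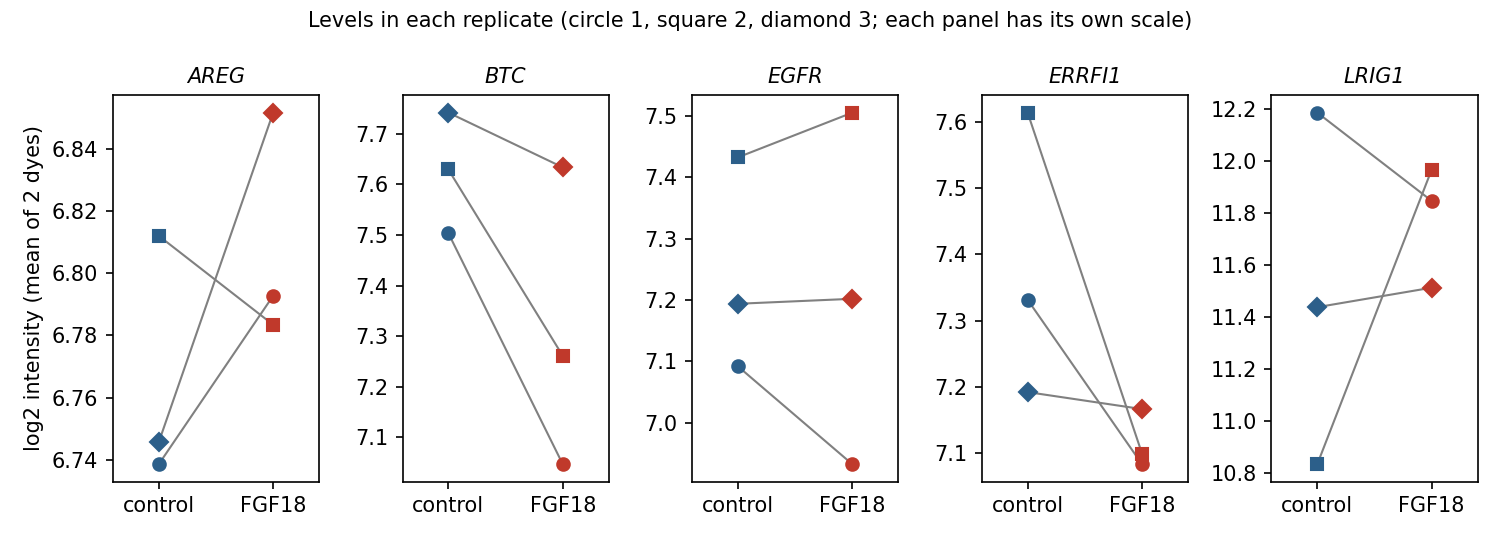
Log2 intensity of AREG, BTC, EGFR, ERRFI1 and LRIG1 in control and FGF18-treated cells of each replicate, averaged over both dyes, with lines joining a replicate and a separate scale for each gene. BTC and ERRFI1 read lower with FGF18 in each replicate, while the control of LRIG1 spreads from 10.8 to 12.2.

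Of the inhibitors, ERRFI1 (also called MIG6), itself induced by EGFR signalling in many cells, read lower with FGF18. Its level was 7.08, 7.10 and 7.17 in FGF18-treated cells and 7.33, 7.61 and 7.19 in the control of replicates 1, 2 and 3. The groups did not overlap, as did 5.82% of all genes, but the lowest control level and the highest FGF18 level, both of replicate 3, were close. FGF18-treated cells differed little between replicates (SD 0.044), and the control spread more (SD 0.21). The ratios were -0.25, -0.51 and -0.026, with a mean of -0.26 ± 0.24 (1.20-fold lower, n = 3) and a 95% interval from -0.61 to 0.089. Of the 6 arrays, 1 was above 0, the array of replicate 3 with FGF18 in Cy5, at 0.23. Without replicate 2 the mean was -0.14.

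LRIG1, a membrane protein with leucine-rich repeats that restrains EGFR and its relatives, had the widest spread. Its level was 11.8, 12.0 and 11.5 in FGF18-treated cells and 12.2, 10.8 and 11.4 in the control of replicates 1, 2 and 3. The control of replicate 1 was the highest of the 6 levels and the control of replicate 2 the lowest, and the groups overlapped. Levels spanned 2.55-fold between control cultures and 1.37-fold between FGF18-treated cultures. In replicate 2, the unnormalized intensity of LRIG1 was 3857 and 4524 for FGF18 against 1502 and 1680 for control, in the arrays with FGF18 and with the control in Cy5. In replicate 1 it was 3704 and 4393 for FGF18 against 5510 and 5028 for control.

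The ratios of LRIG1 were -0.34, 1.13 and 0.075 in replicates 1, 2 and 3, with a mean of 0.29 ± 0.76 (n = 3) and a 95% interval from -0.69 to 1.27. The 2 arrays of a replicate read alike. They gave -0.41 and -0.27 in replicate 1, 1.14 and 1.12 in replicate 2, and 0.17 and -0.015 in replicate 3. The gap between dye orientations was thus at most 0.18, while replicates differed in sign. An SD as large or larger was found in few genes: 4.24% of all genes exceeded it, and 7.37% of the 8505 genes above background on every array in both conditions. Replicate 2 decided the sign of the mean, which was -0.13 without it, and without replicate 1 the mean was 0.60.

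**Figure D3:**
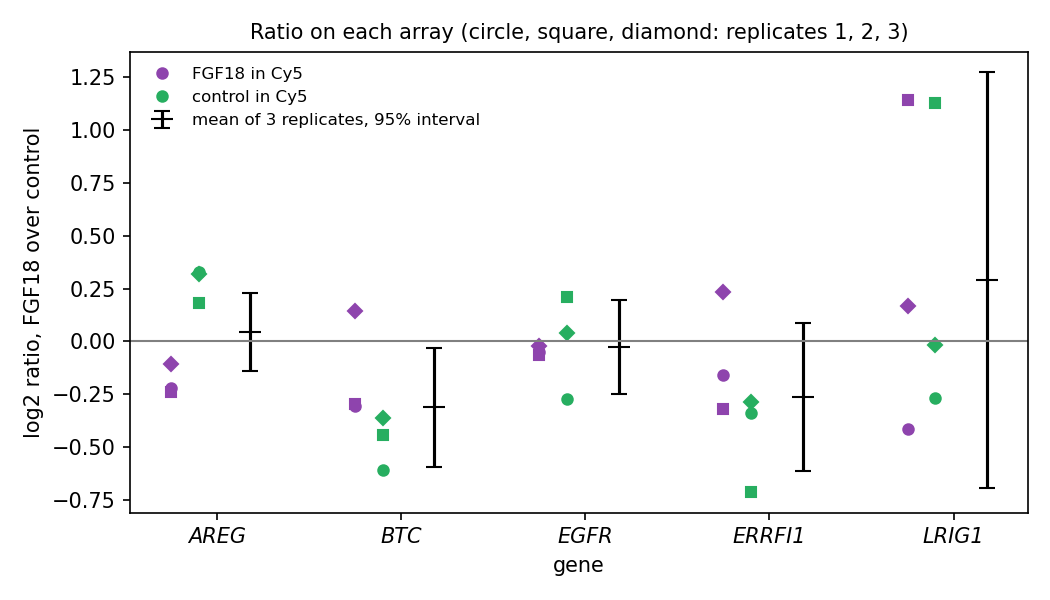
Log2 ratio of FGF18 over control on each of 6 arrays, coloured by dye orientation and shaped by replicate, with the mean of 3 replicates and its 95% interval in limma. For AREG the orientations lie on opposite sides of 0. For LRIG1 they differ by at most 0.18 within a replicate, while the arrays spread from -0.41 to 1.14.

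The genes did not move together. Of the 8 measured, 2 (BTC and ERRFI1) were lower in all 3 replicates, where 12% of all genes were, and 0 were higher in all 3, where 12% were. On all 6 arrays, 0 of AREG, BTC, EGFR, ERRFI1 and LRIG1 kept 1 sign, against 7.2% of all genes. AREG, EGFR and LRIG1, 3 of these 5, had opposite signs in replicates 1 and 2, against 57.2% of all genes. The median ratio of AREG, BTC, EGFR, ERRFI1 and LRIG1 was -0.026, and that of all genes was -0.0082. The SD between replicates was below the median of all genes, 0.17, for AREG and EGFR and above it for BTC, ERRFI1 and LRIG1. Many of all genes are dim, and the processing shrinks their ratios. Among the 8505 genes above background on every array in both conditions, 72.5% had a larger SD than BTC and 58.9% than ERRFI1. For LRIG1 this share was 7.37%.

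Genes with ratios most like those of EGFR and BTC over the 6 arrays were sought among the 8505 genes above background on every array in both conditions. For EGFR these were LASS1 (now CERS1), TRAM1 and TMEM44, with Pearson correlations of 0.966, 0.961 and 0.928. For BTC they were CRYBG3, C9orf64 (now QNG1) and TCP11L1, at 0.99, 0.988 and 0.985. They are the highest correlations over all these genes and over 6 arrays, so they describe these arrays only. The arrays are taken to share RNA in pairs, and they share dye orientation in threes. Against the mean ratio of -0.31 for BTC, the means were 0.19 for CRYBG3, -0.35 for C9orf64 and 0.092 for TCP11L1.

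The rest of the pathway also gave no call. Of 75 entries for other genes of EGF receptor signalling, of which NRD1 and NRDC name 1 gene, 68 were measured. In limma, 0 of 68 passed in either direction. The count at an unadjusted p under 0.05 was 2 of 68, USP8 and PTX3, against 3.49% of all genes. In all 3 replicates 11 of 68 were higher and 7 lower, against 12% of all genes in each direction. The median ratio was 0.016.

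Among other ligands and receptors, 5 of 9 entries were measured and 0 passed. EGF itself had -0.21 ± 0.39, from -0.62 in replicate 2 to 0.16 in replicate 1. NRG1 (neuregulin 1), a ligand of ERBB3 and ERBB4, had -0.039 ± 0.26. ERBB3, a receptor with little kinase activity of its own, had 0.036 ± 0.10 (all n = 3). NRG3 was above background in 2 FGF18 and 3 control readings, and ERBB4 in 0 and 2, so their ratios are left out. ERBB2, the partner without a ligand of its own, was not analysed here.

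Of the genes that release ligands from the membrane, 10 were measured, with a median of 0.0016 and 0 calls. ADAM17, the main sheddase of AREG, HBEGF and TGFA, had 0.13 ± 0.37, with -0.20, 0.54 and 0.06 in replicates 1, 2 and 3. Its second probe, above background in 6 FGF18 and 5 control readings, gave 0.19. ADAM10, the main sheddase of BTC and EGF in mouse cells, had 0.035 ± 0.11. RHBDF1 and RHBDF2, the iRhoms that escort ADAM17 to the cell surface, had -0.37 ± 0.39 and 0.11 ± 0.10. RHBDF1 read -0.72, -0.44 and 0.044 in replicates 1 to 3, and its mean was -0.20 without replicate 1 and -0.58 without replicate 3. RHBDF2 read 0.075, 0.23 and 0.040, and its mean was 0.057 without replicate 2. FRMD8, which stabilises the complex of iRhom and ADAM17, had 0.25 ± 0.17, with 0.34, 0.36 and 0.051 in the 3 replicates (all n = 3). None of these had an adjusted p below 0.986 in limma.

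Of 27 measured genes that control the receptor, 0 passed and the median was 0.022. All 3 replicates lay above 0 for 7 of 27 and below 0 for 2, where 12% of all genes lay in each direction, and the list was not tested. USP8, a deubiquitinase of receptors on endosomes, had -0.42 ± 0.30, with -0.21, -0.76 and -0.28 in replicates 1, 2 and 3. RNF41, a ubiquitin ligase of ERBB3, had 0.18 ± 0.08, with 0.19, 0.26 and 0.095. RAB7A, a GTPase of late endosomes, had 0.44 ± 0.37, with 0.84, 0.39 and 0.10 (all n = 3). LRIG2 and LRIG3, the relatives of LRIG1, were picked after their values were seen. LRIG3 had -0.38 ± 0.33, with -0.28, -0.75 and -0.11 in the replicates, but its other probes gave 0.05 and -0.089. LRIG2, above background on 4 arrays in each condition, had 0.041 ± 0.033. In replicate 2, where LRIG1 read 1.13, LRIG3 read -0.75.

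Adaptors and signal transducers, 19 measured, had a median of -0.0079, with 0 calls. In all 3 replicates 1 was higher and 2 were lower, against 12% of all genes in each direction. STAT3, a transcription factor downstream of EGFR, had -0.50 ± 0.80, of which replicate 2 gave -1.43 and the others -0.009 and -0.076. Its other probes gave -0.23 and -0.094. PIK3CA, the catalytic subunit of PI3 kinase, had 0.24 ± 0.40, again with replicate 2 apart at 0.69. GAB2 was above background in 4 FGF18 and 2 control readings, and its ratio is left out.

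Genes that EGF-like ligands induce in cumulus and granulosa cells around ovulation were measured in 7 of 7 cases, with a median of 0.18 and 0 calls. PTX3, which links the hyaluronan matrix, had ratios of 0.26, 0.63 and 0.34 in replicates 1, 2 and 3 and was the member of this list with an unadjusted p under 0.05. HAS2, the hyaluronan synthase, had -0.13, 0.73 and 0.30, and PTGS2, the inducible prostaglandin synthase, had -0.31, 0.89 and 0.086. TNFAIP6, which transfers heavy chains onto hyaluronan, had -0.55, 0.11 and 0.14. Among the named genes of this list, HAS2, PTGS2 and TNFAIP6 were below 0 in replicate 1 and above it in replicates 2 and 3, and PTX3 was not. The rest of the list was mixed in this respect. Opposite signs in replicates 1 and 2, in either order, were found in 57.2% of all genes, and this pattern was not tested.

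**Figure D4:**
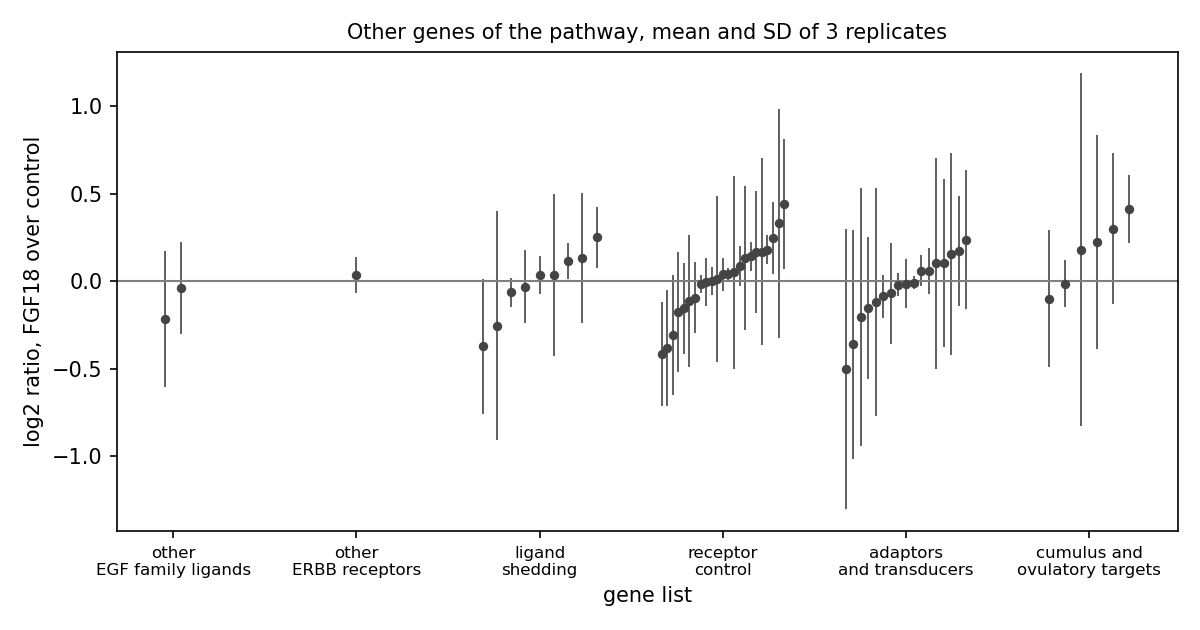
Log2 ratio of FGF18 over control for 58 other pathway genes above background on at least 3 arrays in both conditions, by list, as the mean (point) and SD (line) of 3 replicates. The means lie between -0.50 and 0.44, and the SD lines of 48 genes reach across 0.

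Over the whole array, 45.7% to 73.5% of probes passed the background threshold in a given array and dye. The ratios of replicates 1 and 2 correlated at -0.24 across 30837 probes above it. Those of replicates 1 and 3 did so at -0.039, and those of replicates 2 and 3 at 0.38 (a description, since probes share arrays). Between the opposite dye orientations, Pearson values were 0.67 for replicate 1, 0.77 for replicate 2 and 0.27 for replicate 3. The last lay below the 0.38 between replicates 2 and 3, which limits the averages printed for replicate 3. Markers of cell types were counted by a looser rule, 3 or more readings past the background threshold in either condition. Of all 15229 genes, 12200 passed this rule, so counts of passing markers do not show which cell types were present. Of 18 granulosa markers 16 passed it, with FSHR, AMH, INHA and CYP11A1 among them, while FOXL2 and HSD17B1 were above it on 0 arrays. Of other cell types, 10 of 11 theca and stroma, 6 of 8 endothelial, 9 of 9 leukocyte and blood, and 6 of 9 oocyte markers passed it. PECAM1, TIE1, GDF9 and ZP4 were above it on 0 arrays. In limma 0 of these markers passed, and their part in the levels above was not tested. Fewer cells of a type and less RNA per cell cannot be told apart in such bulk samples.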

How the data were processed

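Total RNA was amplified in 2 rounds and labelled directly with Cy3 or Cy5, per the labels' protocols. Each deposited scanner file gives unnormalized spot intensity (mean) and local background (median) at both wavelengths, per the file headers. For the authors' deposited log2 ratios, the steps are not given in the sources used here. Each of the 6 columns matched the scanner values after plain background subtraction and loess, as FGF18 over control, with correlations that round to 1.00. Its column medians ran from -0.0037 to 0.0019.

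The fit used limma 3.58.1 in R 4.3.3. Background correction was by normexp (offset 50, which draws ratios of dim probes toward 0), followed by loess per array (span 0.3), for which 1418 control spots had weight 0. Spots without a name were left out. Ratios were turned to FGF18 over control and the 2 arrays of a title number averaged. The 3 replicates entered lmFit and eBayes over all 15229 genes, with Benjamini-Hochberg adjustment and a threshold of 0.05. The brightest probe stood for a gene, named through the platform annotation (21790 probes with 1 symbol, 0 with several, 22004 unnamed). The genes studied and the lists were matched to these symbols as given. RefSeq of ARS-UCD2.0 supplied the current names printed beside older symbols. No coordinates or sequences are given. A ratio is printed where a probe was above background on at least 3 arrays in both conditions. Levels came from loess and Aquantile.

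Same-numbered FGF18 and control share arrays, and their channels deviated together at 0.49, 0.47 and 0.50. Both were read on the same spots, so these values cannot show whether the cultures were paired. The ratios hold the pairing by array. The fit was tested on simulated data. The genes and lists were chosen with earlier results of these data known. Besides the 9 genes, named genes were up to 3 per list by unadjusted p among those above background, plus a fixed panel of 11. The alternatives changed background correction, normalization, filter, replicates, dyes, channels, prior, probe rule and source of values.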

Additional observations from a re-analysis of the deposited data

Results flagged for a closer look

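The ratio of AREG lay below 0 on each of the 3 arrays with FGF18 in Cy5 and above 0 on each of the 3 arrays with the control in Cy5. The orientation means were -0.19 and 0.28, a difference of -0.47. In limma's test of the dye term the adjusted p was 0.084, so the difference did not pass. Dye and slide cannot be told apart, and the probe read between 0.954 and 1.18 times the background threshold.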

How the results depend on the processing

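Under 18 alternatives 0 genes passed the adjusted threshold, 0 of the other pathway genes passed, and the smallest adjusted p was 0.109 for any gene and 0.208 for a named one. The leave-one-out fits gave 0 and 0 as lowest and highest count. Against 3.49% of genes at an unadjusted p under 0.05, the share was 2.32% without replicate 3, 9.25% and 10.8% with FGF18 or the control in Cy5 alone, 6.16% with 6 arrays and the replicate block, 11.3% with no replicate block, and 1.83% with separate channels and no replicate block. Separate channels with the replicate block repeat 3.49% by construction, and the block changed no call. ERRFI1 kept its direction in 18 of 18, between -0.44 and -0.081, and 8 of these equal the reported value by construction. Of 432 values of 24 named genes, 17 turned sign, in 12 of the genes. For each gene, 6 or 8 of the 18 values equal the reported one by construction and could not turn. EGFR gave 0.011 with median centring. Without 1 replicate, EGFR ranged from -0.076 to 0.040, LRIG1 from -0.13 to 0.60, NRG1 from -0.19 to 0.063, ERBB3 from -0.0027 to 0.093, ADAM17 from -0.070 to 0.30, ADAM10 from -0.012 to 0.094, PTGS2 from -0.11 to 0.49 and TNFAIP6 from -0.22 to 0.13. With FGF18 in Cy5 alone, AREG gave -0.19, NRG1 0.016, ERBB3 -0.084, ADAM10 -0.0090 and LRIG2 -0.038. With the second brightest probe, BTC gave 0.0071 and LRIG3 0.050. The cause was not tested. BTC gave -0.15 with FGF18 in Cy5, -0.47 with the control in Cy5 and -0.11 as the mean of its probes. It gave -0.28 in the authors' deposited table, which nearly repeats plain subtraction. With a normexp offset of 16 in place of 50, BTC gave -0.39 and ERRFI1 -0.33, so the size of these ratios depends on the offset. Signal near background limits AREG, BTC, EGFR and ERRFI1.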
